A study of Mus musculus with 18 samples.

Results

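The genes described here are 9 matrix metalloproteinases, Mmp3, Mmp10, Mmp13, Mmp8, Mmp2, Mmp9, Mmp12, Mmp14 and Mmp19, and their inhibitor Timp1. These 10 genes were chosen by name out of 19937 genes measured by the 21640 tested probe sets of the array, and the names, with Mmp3 as the lead gene, were selected on earlier results of the same arrays. The values that chose them were mainly the stroke differences, so those differences are given below as a description. No p is given for them, and counts of members past the threshold describe the choice and support nothing. Each of the 10 was measured by 1 probe set that carries no other gene symbol.

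The study measured gene expression in the dura mater, the outer of the meninges, of 18 male mice aged 17 to 21 weeks, with 3 mice in each of 6 groups and 1 mouse per array. Wild-type mice were WBB6F1-Kit+/+. Mast cell-deficient mice were WBB6F1-KitW/W-v, in which both copies of the receptor gene Kit are mutant. Engrafted mice carried the same mutant alleles and had been given mast cells by vein 8 to 10 weeks before the experiment, so their other cells still carry mutant Kit. Each category was split into 3 naive mice and 3 with a stroke, a 30 minute closure of the middle cerebral artery with a filament, with the dura taken 2 days later. The naive mice had no operation, and every stroke difference therefore includes the effect of surgery. The design asked how stroke changes meningeal gene expression and what mast cells contribute to that.

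Matrix metalloproteinases are zinc enzymes that cut collagens, proteoglycans, basement membrane and many cytokines. Most are secreted as inactive proenzymes, are opened by other proteases such as plasmin or mast cell tryptase and chymase, and are blocked by the TIMP proteins. Their transcription is known to be raised by inflammatory cytokines through AP-1 sites, and in injured brain and meninges they are known for opening vessel walls and remodelling matrix.

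The promoters of 7 members were found by symbol in the RefSeq table of GRCm38.p6, with Mmp2, Mmp9 and Mmp19 not matched. Promoters of 4 genes are shown because they belong to the gene with the largest stroke difference, to both members beside it in the metalloproteinase gene cluster with the same pair of motifs, and to the inhibitor. Each is the 250 bases before the start of transcription, 5′ to 3′ on the + strand, at chr9:7445572-7445821 (Mmp3), chr9:7502092-7502341 (Mmp10), chr9:7272264-7272513 (Mmp13) and chrX:20869916-20870165 (Timp1). Capitals mark the AP-1 motif TGANTCA, which reads the same on both strands, and the TATA box TATAAA, searched on both strands; the motifs do not overlap.
Mmp3: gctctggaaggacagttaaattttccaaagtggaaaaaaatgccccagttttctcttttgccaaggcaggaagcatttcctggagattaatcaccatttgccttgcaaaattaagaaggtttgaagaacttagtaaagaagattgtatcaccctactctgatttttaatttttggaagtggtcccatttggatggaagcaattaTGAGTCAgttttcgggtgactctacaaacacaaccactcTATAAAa
Mmp10: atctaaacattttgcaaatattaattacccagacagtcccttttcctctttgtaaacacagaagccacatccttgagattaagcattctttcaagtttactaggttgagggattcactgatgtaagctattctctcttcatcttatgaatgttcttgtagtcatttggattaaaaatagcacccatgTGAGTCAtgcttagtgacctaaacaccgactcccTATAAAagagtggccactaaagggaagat
Mmp13: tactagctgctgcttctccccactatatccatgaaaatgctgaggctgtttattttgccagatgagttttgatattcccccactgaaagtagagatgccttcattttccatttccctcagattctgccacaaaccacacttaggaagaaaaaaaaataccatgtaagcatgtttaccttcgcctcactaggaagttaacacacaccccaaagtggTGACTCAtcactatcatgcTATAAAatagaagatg
Timp1: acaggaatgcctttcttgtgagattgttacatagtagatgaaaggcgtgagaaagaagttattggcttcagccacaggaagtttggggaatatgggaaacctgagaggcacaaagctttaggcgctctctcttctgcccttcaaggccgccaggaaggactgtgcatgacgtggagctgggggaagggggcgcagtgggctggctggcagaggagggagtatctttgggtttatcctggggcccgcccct
The AP-1 motif was found for 4 of the 7 members, Mmp3, Mmp10, Mmp12 and Mmp13, and in 6.75% of all 32851 promoter windows of the table. A gene counted when any of its windows matched, whereas the share is per window. Mmp12 also had a window, at chr9:7344147-7344396, that held neither motif. The TATA box stood in 3 of the 7, those of Mmp3, Mmp10 and Mmp13, against 12.4% of all windows. The windows of Timp1, Mmp14 and Mmp8 held neither string. A match describes the letters of the window and is not a measured binding site.

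The values of the array are on a log2 scale, so 1 unit is a 2-fold difference. They ran from 3.42 to 14.06, with array medians of 7.77 to 7.91, lower quartiles of 6.09 to 6.23 and upper quartiles of 9.49 to 9.60. Arrays of the same group correlated over all probe sets with r of 0.985 to 0.995, and precision is limited by their small number. A log2 difference of group means had a median standard error (SE) of 0.0959, and a difference of stroke responses one of 0.136. Markers of meningeal fibroblasts averaged 11.46 to 11.93 over the 18 arrays, above every upper quartile. Markers of neurons averaged 9.78 to 11.46 and those of choroid plexus 8.79 to 12.45. Of the arrays 5 stood apart with low Ttr, a choroid plexus transcript, at 9.03 to 10.17 against 13.03 to 13.78 in the other 13. These 5 were naive deficient arrays 1 and 3, naive engrafted array 3, wild-type stroke array 2 and deficient stroke array 2, and results were computed with and without them. Mast cell markers (8 of 8 measured) averaged 6.20 to 6.36 in deficient dura and 7.60 to 8.82 in the other categories.

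Mmp3 encodes stromelysin 1, which degrades proteoglycans and basement membrane and activates other metalloproteinases. Its log2 levels (probe set 10583071) in naive dura were 6.72, 6.91 and 6.79 in wild type, 6.76, 6.73 and 6.98 in deficient and 6.36, 6.81 and 6.70 in engrafted mice. After stroke they were 10.83, 11.09 and 11.12 in wild type, 8.21, 7.56 and 7.34 in deficient and 9.51, 9.84 and 9.59 in engrafted mice. The naive groups overlapped one another, every stroke array was above every naive array, and the stroke groups formed 3 separate levels with wild type highest and deficient lowest. In order, the group means were 11.01 ± 0.16 in wild-type stroke, 9.65 ± 0.17 in engrafted stroke, 7.70 ± 0.45 in deficient stroke, then 6.82 ± 0.14, 6.80 ± 0.10 and 6.62 ± 0.23 in the naive dura of deficient, wild-type and engrafted mice (SD, n = 3 each). The last 3 do not differ beyond their spread. All 9 naive values and those of deficient stroke arrays 2 and 3 lay below their array's median, a range in which the array compresses differences. The folds below may therefore be understated, and not equally in the 3 categories.

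**Figure D1:**
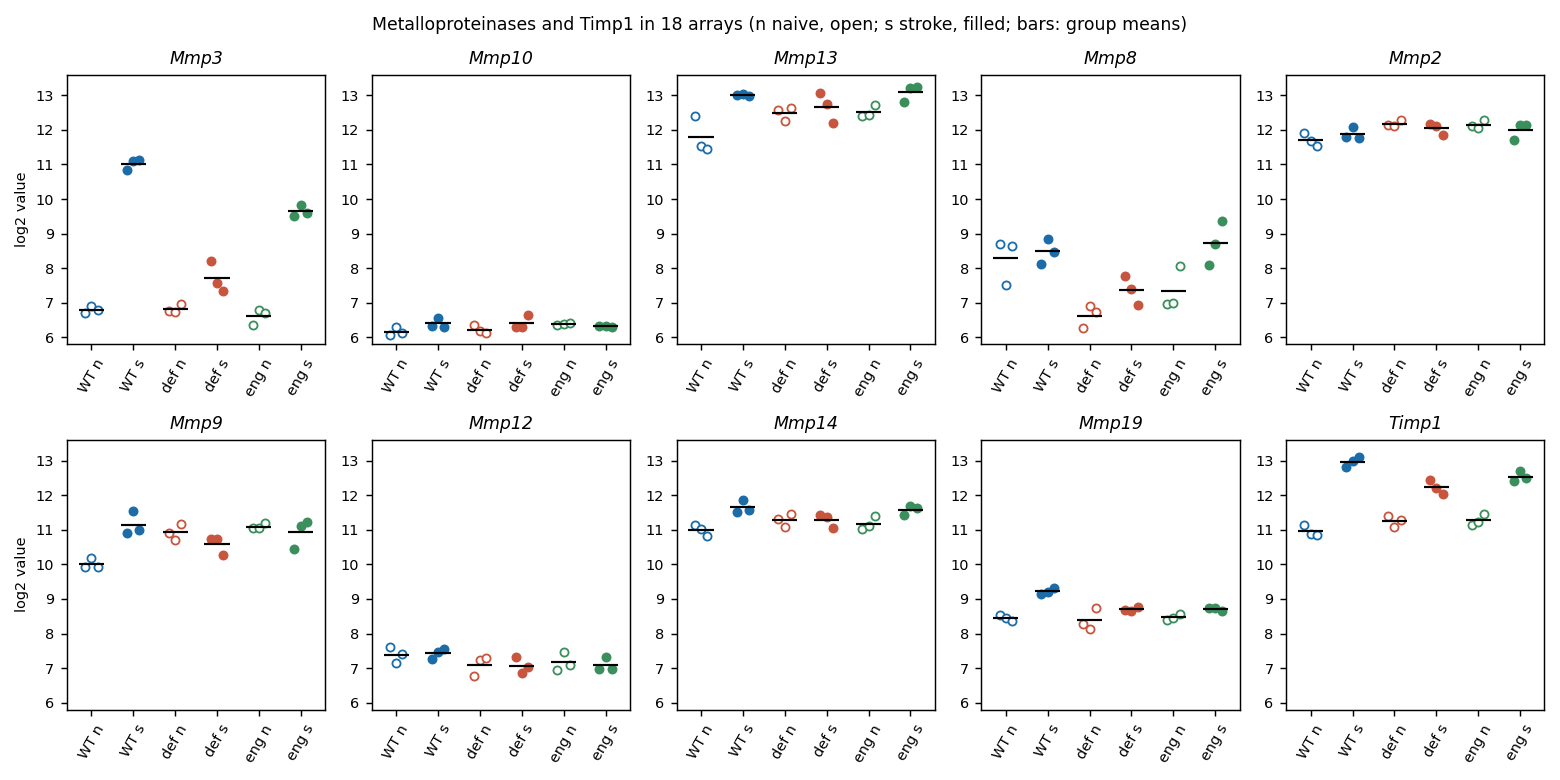
Log2 level of the 10 genes in each of 18 arrays, by category (wild type, deficient, engrafted) for naive (open points) and stroke (filled points) dura; bars are means of 3 arrays. Mmp3 separates into 3 stroke levels (means 11.01, 9.65 and 7.70) above a common naive level, while Mmp2, Mmp10 and Mmp12 stay within a narrow range.

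Against naive dura of the same category, Mmp3 was higher after stroke by 4.21 in wild type, 0.88 in deficient and 3.02 in engrafted mice (log2, SE 0.18 each), or 18.5-fold, 1.85-fold and 8.11-fold. In wild type and in engrafted dura it had the largest difference of all 21640 tested probe sets, and in deficient dura it stood at place 60. The deficient difference leaned on 1 library: without deficient stroke array 1 it was 0.63, and without deficient stroke array 3 it was 1.07.

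The Mmp3 response of deficient mice differed from both other categories by more than the spread between replicates. It was smaller in deficient than in wild-type mice by -3.32 ± 0.25 (SE; 95% interval -3.86 to -2.79), a 10-fold smaller rise, with a limma adjusted p of 8.19e-06 over all tested probe sets. Of all probe sets, 0.351% passed the threshold of adjusted p under 0.05 in this comparison, and Mmp3 had the largest difference. The response in engrafted mice exceeded that in deficient mice by 2.14 ± 0.25 (95% interval 1.60 to 2.67, limma adjusted p = 0.00683). Mmp3 was the only probe set of 21640 that passed there, 0.00462% of them. Between engrafted and wild-type mice the response differed by -1.19 ± 0.25 (95% interval -1.72 to -0.66), which missed the threshold (limma adjusted p = 0.106), as against 0.106% of probe sets that passed. It passed without deficient stroke array 1 (limma adjusted p = 0.0193) and with array weights (0.0491). These comparisons share their arrays pairwise, and Mmp3 was made the lead gene with these results known. They are built from the stroke differences that chose the gene, and their p values do not allow for that choice.

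The deficient against wild-type difference of Mmp3 passed under all alternatives tried. The engrafted against deficient one was lost with only the compared groups in the fit (limma adjusted p = 0.201), with a minimum change of 1.5-fold (0.164) and without the 5 arrays lowest in Ttr (2.01, adjusted p = 0.341), a fit that leaves naive deficient dura with 1 array.

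Compared within one condition, Mmp3 after stroke was lower in deficient than in wild-type dura by -3.31 ± 0.18 (limma adjusted p = 1.13e-07) and higher in engrafted than in deficient dura by 1.94 ± 0.18 (limma adjusted p = 0.00012). Engrafted dura stayed below wild type by -1.37 ± 0.18 (limma adjusted p = 0.00214). The second call was lost with only the compared groups in the fit (adjusted p = 0.149). The last was lost there (0.0703), with a minimum change of 1.5-fold (0.497) and without the 5 arrays lowest in Ttr (0.0509). In naive dura the 3 pairs of categories differed by 0.02, -0.20 and -0.18 (SE 0.18), each below the threshold.

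Macrophage markers (8 of 8 measured, Mmp12 left out) moved with Mmp3 in stroke dura over a smaller range. Their mean log2 level was 9.24 to 9.62 over the naive arrays, 9.84 to 10.00 in wild-type stroke, 9.63 to 9.92 in engrafted stroke and 9.48 to 9.57 in deficient stroke arrays, with engrafted and wild type overlapping. Of these markers 5 of 8 rose in wild-type stroke, beside 6.24% of all probe sets. Keratinocyte markers (5 of 5) averaged 7.22 to 7.51 in wild-type stroke arrays against 6.63 to 6.89 in naive wild type, and neuron markers (5 of 5) 9.78 to 10.28 against 10.69 to 11.09. Keratinocyte markers averaged 6.90 to 7.06 against 6.68 to 6.78 in deficient and 6.91 to 7.18 against 6.69 to 6.85 in engrafted dura. For neuron markers, stroke and naive arrays overlapped in deficient dura (10.30 to 10.92 against 10.61 to 11.46). They also overlapped in engrafted dura (10.49 to 11.06 against 10.87 to 11.07). These are list means and do not show that every marker of a list moved. Krtdap, named below for its likeness to Mmp3, rose by 3.36 (log2) in wild-type stroke. How far the keratinocyte mean rests on single genes such as Krtdap was not tested. Meningeal fibroblast markers (8 of 8) averaged 11.67 to 11.93 in wild-type, 11.58 to 11.72 in engrafted and 11.46 to 11.59 in deficient stroke arrays, and chondrocyte markers (5 of 5) ran the other way, at 7.63 to 7.97, 7.99 to 8.12 and 8.25 to 8.29. The naive means of the chondrocyte markers were 8.14 in wild type, 8.41 in engrafted and 8.38 in deficient dura. Wild type was thus lowest in these markers before stroke too. The part of these lists in the Mmp3 result was not tested. In whole tissue, fewer cells of a type and less RNA per cell cannot be told apart.

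Timp1 encodes the secreted inhibitor that binds most active metalloproteinases. Its log2 levels (probe set 10598976) in naive dura were 11.15, 10.87 and 10.86 in wild type, 11.41, 11.08 and 11.30 in deficient and 11.13, 11.22 and 11.46 in engrafted mice. After stroke they were 12.81, 12.98 and 13.11 in wild type, 12.45, 12.20 and 12.03 in deficient and 12.40, 12.69 and 12.50 in engrafted mice. All 9 stroke arrays were above all 9 naive arrays, and the wild-type stroke arrays were above both other stroke groups, which overlapped each other. The stroke differences were 2.01 in wild type, 0.97 in deficient and 1.26 in engrafted dura (SE 0.13), or 4.03-fold, 1.95-fold and 2.39-fold.

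Without the 5 arrays lowest in Ttr the deficient difference of Timp1 was 1.16. The response of Timp1 was smaller in deficient than in wild-type mice by -1.04 ± 0.18 (limma adjusted p = 0.0209). This call was lost, with adjusted p of 0.0543 to 0.0822, on leaving out wild-type naive array 2 or 3, wild-type stroke array 2 or 3, deficient naive array 1 or 3 or deficient stroke array 2 or 3, with values of -1.04 to -0.94. It was also lost with the replicate block (adjusted p = 0.0535), with a minimum change of 1.5-fold and without the 5 arrays lowest in Ttr (-0.84, adjusted p = 0.395). After stroke Timp1 was lower in deficient than in wild-type dura by -0.74 ± 0.13 (limma adjusted p = 0.00621; 0.0529 with only the compared groups in the fit and 0.0976 without the 5 arrays lowest in Ttr). The engrafted level lay -0.44 ± 0.13 from wild type and 0.30 ± 0.13 from deficient, and both missed the threshold.

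**Figure D2:**
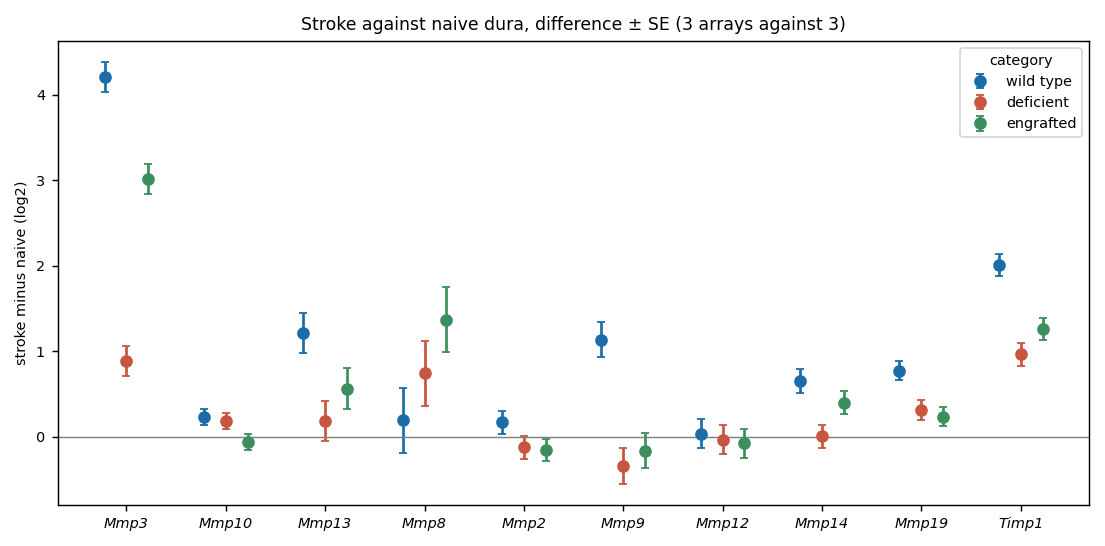
Stroke minus naive difference of each of the 10 genes (log2) in wild-type, deficient and engrafted dura; points are limma estimates from 3 arrays against 3 and bars are SE. Mmp3 (4.21, 0.88 and 3.02) and Timp1 (2.01, 0.97 and 1.26) are above 0 in all 3 categories, and Mmp9 is above 0 in wild type alone (1.14, against -0.34 and -0.16).

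Over the 10 genes, 6 were past the threshold as higher in wild-type stroke (Mmp3, Mmp9, Mmp13, Mmp14, Mmp19 and Timp1), beside 6.24% of all probe sets, and 0 as lower, beside 4.63%. In deficient dura 1 of 10, Timp1, was higher and 0 lower, beside 0.125% of probe sets in each direction. Mmp3 was not past the threshold there. In engrafted dura 2 were higher, Mmp3 and Timp1, beside 0.878%, and 0 lower, beside 0.236%. Averaged over the 3 categories 6 were higher (Mmp3, Mmp8, Mmp13, Mmp14, Mmp19 and Timp1), beside 8.05%, and 0 lower, beside 5.42%. Since these contrasts chose the genes, the counts only describe them. The median difference of the 10 was 0.72, 0.19 and 0.32 in wild-type, deficient and engrafted dura, against 0.01, 0.04 and -0.01 over all tested probe sets. Stroke and naive arrays did not overlap, with stroke higher, for 7 of 10 genes in wild type, 3 in deficient and 6 in engrafted dura, where Mmp10 alone was lower without overlap. The same held in either direction for 30.0%, 19.6% and 16.5% of all probe sets.

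Mmp10, stromelysin 2, lies on the same stretch of chromosome 9 as Mmp3 and has the same pair of motifs in its promoter, shown above. Its levels (probe set 10583090) were below the array median on all 18 arrays, from 6.08 to 6.64, and below the lower quartile on 3. The stroke differences were 0.24, 0.19 and -0.06 in wild type, deficient and engrafted dura (SE 0.10). The stroke arrays of wild type, at 6.32 to 6.56, lay above the naive ones, at 6.08 to 6.30, by a difference that was not past the threshold.

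Collagenases cut fibrillar collagen. Mmp13, the collagenase of bone and cartilage, had naive levels (probe set 10583044) of 12.41, 11.53 and 11.44 in wild type, 12.58, 12.24 and 12.63 in deficient and 12.39, 12.44 and 12.71 in engrafted mice. After stroke the values were 13.00, 13.04 and 12.99 in wild type, 13.08, 12.74 and 12.20 in deficient and 12.80, 13.20 and 13.24 in engrafted mice. Naive wild-type arrays 2 and 3 were the lowest of the 18, naive and stroke arrays overlapped in deficient dura, and they did not in wild type or engrafted dura. The differences were 1.22, 0.19 and 0.57 (SE 0.23), and the response in deficient mice lay -1.03 ± 0.33 from wild type without passing the threshold (limma adjusted p = 0.334). Osteoblast markers (5 of 6 measured, Mmp13 left out) averaged 8.62 to 9.36 over all arrays.

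Mmp8, the neutrophil collagenase, varied most among replicates. Its naive levels (probe set 10583100) were 8.70, 7.52 and 8.64 in wild type, 6.26, 6.90 and 6.72 in deficient and 6.98, 6.99 and 8.07 in engrafted mice. After stroke they were 8.13, 8.85 and 8.48, then 7.78, 7.40 and 6.95, then 8.09, 8.70 and 9.37 in the same order of categories. Deficient arrays were lowest in both conditions, and naive and stroke wild-type arrays overlapped. The stroke differences were 0.20 in wild type, 0.75 in deficient and 1.37 in engrafted dura (SE 0.38). Single arrays moved them: the engrafted one was 1.73 without naive engrafted array 3 and 1.69 without engrafted stroke array 1. With 1 array left out, the engrafted one was as low as 1.05 and the wild-type one as low as -0.18. Mmp8 was lower in deficient than in wild-type dura by -1.66 ± 0.38 when naive (limma adjusted p = 0.29) and by -1.11 ± 0.38 after stroke (limma adjusted p = 0.169), and neither passed; with array weights the naive difference passed (adjusted p = 0.0125).

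Markers of neutrophils and of granulocyte precursors moved beside Mmp8 only in part. Neutrophil markers (9 of 9 measured, members left out) averaged 6.88 to 7.23 in naive deficient against 7.67 to 8.16 in naive wild-type arrays, and 7.63 to 7.85 against 8.17 to 8.73 after stroke. Granulocyte precursor markers (9 of 9) reached 8.79 to 10.11 in engrafted stroke arrays against 7.60 to 8.39 in naive engrafted ones. In deficient stroke arrays these precursor markers averaged 8.00 to 8.37, overlapping wild-type stroke at 8.15 to 9.37. Mmp8 in deficient stroke, in contrast, lay below every wild-type stroke array. Their part in the Mmp8 values was not tested.

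Gelatinases cut denatured collagen and type IV collagen of basement membranes. Mmp9, stored in neutrophil granules and abundant in osteoclasts, had naive levels (probe set 10478633) of 9.92, 10.19 and 9.92 in wild type, 10.92, 10.69 and 11.17 in deficient and 11.04, 11.04 and 11.20 in engrafted mice. After stroke the levels were 10.89, 11.56 and 10.99 in wild type, 10.74, 10.74 and 10.28 in deficient and 10.45, 11.11 and 11.24 in engrafted mice. The 3 naive wild-type arrays were the lowest of the 18, and the other 5 groups overlapped in part. Mmp9 was thus higher after stroke by 1.14 in wild type, with differences of -0.34 in deficient and -0.16 in engrafted dura (SE 0.21).

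The Mmp9 response was lower in deficient than in wild-type mice by -1.48 ± 0.29 (limma adjusted p = 0.0414). Both conditions enter it. In naive dura Mmp9 lay 0.92 ± 0.21 higher in deficient (limma adjusted p = 0.29) and 1.08 ± 0.21 higher in engrafted than in wild-type mice (limma adjusted p = 0.0904). Both missed the threshold, and with array weights both passed (0.0303 and 0.0338), the second also with only the compared groups in the fit (0.0201). After stroke Mmp9 in deficient dura lay -0.56 ± 0.21 from wild type, which did not pass.

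The call of the Mmp9 response was lost in 18 of 27 alternatives. It was lost, with adjusted p of 0.0508 to 0.13, without any 1 of the 3 naive wild-type, the 3 naive engrafted or the 3 deficient stroke arrays, naive deficient array 1 or 3, wild-type stroke array 2 or 3, or engrafted stroke array 2, with values of -1.57 to -1.27. The others were the replicate block, all probe sets in the adjustment (0.0749), a minimum change of 1.5-fold and leaving out the 5 arrays lowest in Ttr (-1.11, adjusted p = 0.437). Osteoclast markers (6 of 6 measured, Mmp9 left out) averaged 8.06 to 8.35 in naive wild-type arrays and 8.37 to 9.13 over all others. Their part in the Mmp9 values was not tested.

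**Figure D3:**
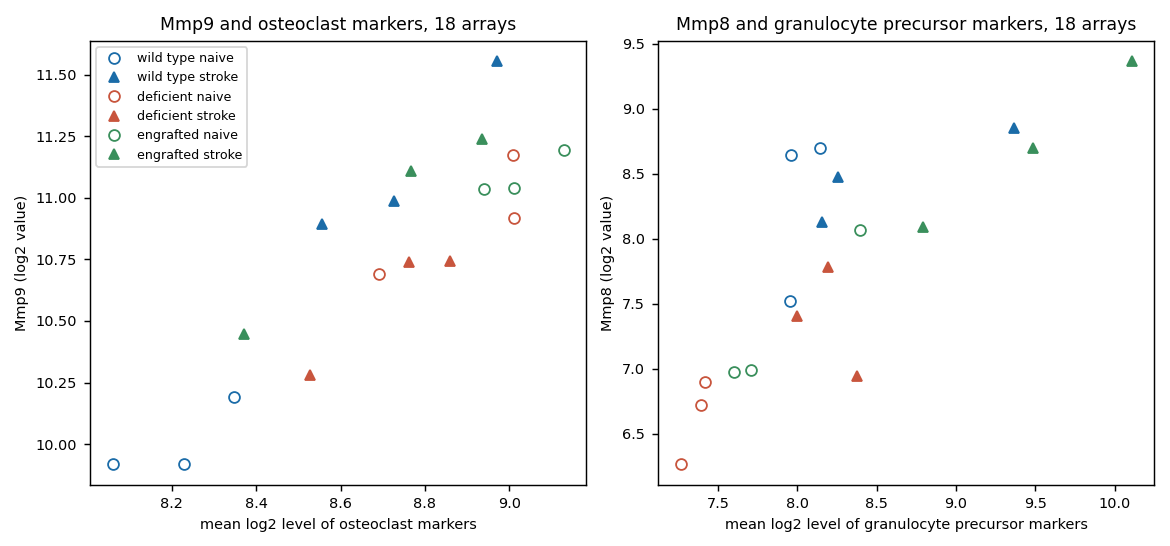
Left, Mmp9 level (log2) against the mean log2 level of 6 osteoclast markers; right, Mmp8 level against that of 9 granulocyte precursor markers; each point is 1 of 18 arrays, open for naive and filled for stroke. The naive wild-type arrays are lowest on both axes on the left (osteoclast markers 8.06 to 8.35), and on the right the naive deficient arrays are lowest on the marker axis (7.26 to 7.42).

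Mmp2, the gelatinase of fibroblasts, had levels of 11.53 to 12.29 over the 18 arrays (probe set 10573924). The stroke differences were 0.17, -0.12 and -0.15 (SE 0.13) in wild type, deficient and engrafted dura, and naive and stroke arrays overlapped in each. In naive dura the deficient and engrafted arrays, at 12.06 to 12.29, were all above the wild-type arrays, at 11.53 to 11.90. These differences of 0.47 and 0.45 missed the threshold (limma adjusted p = 0.531 and 0.135).

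Mmp14 is a membrane-bound enzyme that activates proMmp2 at the cell surface. Its naive levels (probe set 10415052) were 11.13, 11.03 and 10.83 in wild type, 11.31, 11.07 and 11.46 in deficient and 11.02, 11.10 and 11.40 in engrafted mice. After stroke they were 11.53, 11.85 and 11.58, then 11.44, 11.37 and 11.06, then 11.41, 11.67 and 11.64. Stroke was above naive without overlap in wild type and engrafted dura, by 0.66 and 0.40, while the deficient groups overlapped at a difference of 0.01 (SE 0.14). The response in deficient mice lay -0.65 ± 0.19 from wild type and did not pass (limma adjusted p = 0.264).

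Mmp19, a broadly expressed secreted enzyme, had naive levels (probe set 10367400) of 8.53, 8.46 and 8.35 in wild type, 8.28, 8.14 and 8.73 in deficient and 8.39, 8.46 and 8.56 in engrafted mice. After stroke they were 9.15, 9.21 and 9.31 in wild type, 8.69, 8.64 and 8.77 in deficient and 8.75, 8.73 and 8.65 in engrafted mice. Wild-type stroke arrays were above all 15 others. The stroke differences were 0.77, 0.32 and 0.24 (SE 0.11), and without naive deficient array 3 the deficient one was 0.49.

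After stroke Mmp19 was lower in deficient than in wild-type dura by -0.52 ± 0.11 (limma adjusted p = 0.0206), while the engrafted difference of -0.51 ± 0.11 narrowly missed (0.0641). The first was lost without wild-type stroke array 2 or 3 (0.055 and 0.0952) or deficient stroke array 2 or 3 (0.0969 and 0.0551), with a minimum change of 1.5-fold and without the 5 arrays lowest in Ttr (0.0504). The second passed without naive deficient array 2 or 3 (0.0263 and 0.00441), without dim probe sets (0.0486), after a second quantile normalization (0.0475) and with array weights (0.0467). Mmp12, the elastase of macrophages, was below the array median on all 18 arrays (probe set 10583056, 6.76 to 7.61), with stroke differences of 0.04, -0.03 and -0.07 (SE 0.17).

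Across categories, then, 0 of 10 members passed in any comparison of naive dura, where 0.0185% of probe sets passed between deficient and wild type, 0.0185% between engrafted and deficient and 0% between engrafted and wild type. After stroke 3 of 10 (Mmp3, Timp1, Mmp19) were lower in deficient than in wild-type dura, beside 2.61% of probe sets, 1 (Mmp3) was higher in engrafted than in deficient dura, beside 0.0277%, and 1 (Mmp3) was lower in engrafted than in wild type, beside 0.411%. The 3 response differences between deficient and wild type were those of Mmp3, Timp1 and Mmp9, beside 0.351% of probe sets, and 0 members passed in the difference between engrafted and wild type, beside 0.106%. Without overlap of the stroke groups, 6 of 10 were lower in deficient than in wild-type dura (19.4% of probe sets in either direction), 2 higher in engrafted than in deficient (9.91%) and 3 lower in engrafted than in wild type (15.7%). In naive dura the groups did not overlap for 3 members between deficient and wild type (11.8%), 1 between engrafted and deficient (12.1%) and 3 between engrafted and wild type (24.5%).

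The genes of 5 members lie together. Mmp13, Mmp12, Mmp3, Mmp10 and Mmp8 belong to a run of 10 neighbouring metalloproteinase genes on chromosome 9, in the order Mmp13, Mmp12, Mmp1b, Mmp3, Mmp1a, Mmp10, Mmp8, Mmp27, Mmp20 and Mmp7, and all 10 were measured. In wild-type stroke their differences were, in that order, 1.22, 0.04, 0.06, 4.21, 0.29, 0.24, 0.20, 0.22, 0.18 and 0.19. Mmp3 thus stood far above its direct neighbours Mmp1b and Mmp1a. In engrafted dura the next difference after Mmp3, at 3.02, was that of Mmp8, at 1.37. The promoters of 8 of these 10 genes held the AP-1 motif and those of 7 the TATA box, where any window of a gene could match. Both strings stood in the windows of Mmp1b, Mmp1a, Mmp10, Mmp20 and Mmp7, whose differences were at most 0.29, as well as in those of Mmp3 and Mmp13.

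**Figure D4:**
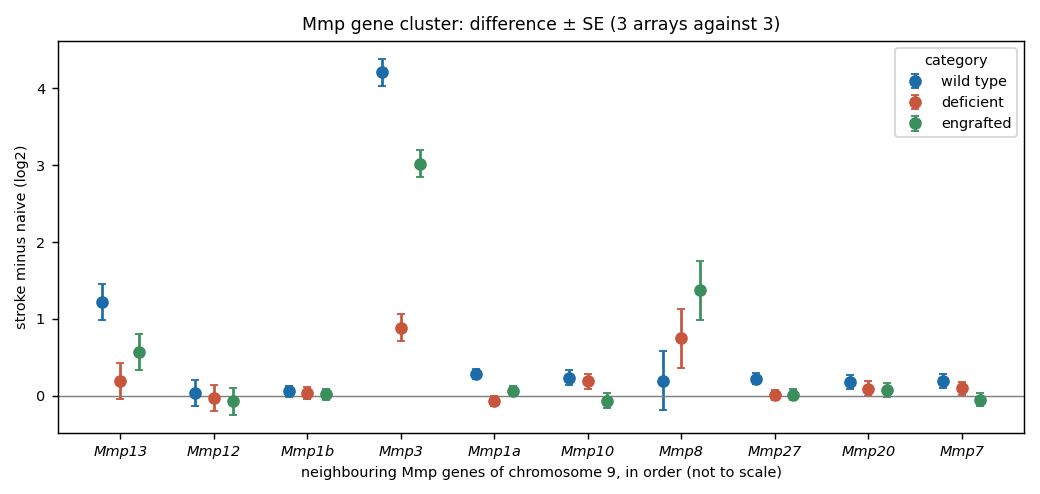
Stroke minus naive difference (log2, limma estimate ± SE, 3 arrays against 3) of the 10 neighbouring metalloproteinase genes of chromosome 9, in gene order and not to scale, for the 3 categories. Mmp3 stands out at 4.21 in wild type and 3.02 in engrafted dura, followed by Mmp8 at 1.37 in engrafted and Mmp13 at 1.22 in wild-type dura.

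Among other genes of the system, which were listed with earlier results known, 2 of 13 measured further metalloproteinases rose in wild-type stroke. These were Mmp11, by 0.52 ± 0.10 (limma adjusted p = 0.00327), and Mmp1a, by 0.29 ± 0.06 (limma adjusted p = 0.0087); 0 fell. The call of Mmp1a was lost with only the compared groups in the fit (adjusted p = 0.0586) and without the 5 arrays lowest in Ttr (0.0778). Of 8 other inhibitors 2 rose and 2 fell. As throughout these lists, 6.24% of all probe sets rose and 4.63% fell in wild-type stroke. The genes named for wild-type stroke were, up to 4 a list, those with the smallest p in this same contrast. Their p values therefore describe that choice. Tfpi2, an inhibitor of plasmin and other serine proteases, rose by 1.58 ± 0.14 (limma adjusted p = 6.68e-06) and Timp2 by 0.27 ± 0.06 (limma adjusted p = 0.0133). Spock2, a matrix proteoglycan, fell by 0.65 ± 0.16 and Reck, a membrane-anchored inhibitor, fell by 0.35 ± 0.09 (limma adjusted p = 0.015 and 0.016). The calls of Timp2, Spock2 and Reck were each lost without 1 of some wild-type arrays: naive 2 or stroke 3 for Timp2 (adjusted p = 0.0559 and 0.063), naive 2, naive 3 or stroke 2 for Spock2 (0.053 to 0.0635), and naive 1, naive 3, stroke 2 or stroke 3 for Reck (0.0551 to 0.0731). All 3 were lost without the 5 arrays lowest in Ttr (0.0559 to 0.0911), and Timp2 and Reck with only the compared groups in the fit (0.111 and 0.0653). The count of 4 inhibitors was 2 without naive wild-type array 2 or 3 or stroke wild-type array 2 or 3. With a minimum change of 1.5-fold, of the related lists' calls in wild-type stroke 1 inhibitor, 1 activating protease, 1 ADAM protease and 1 upstream gene passed, and 0 metalloproteinases and substrates.

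Of the proteases that open proenzymes and their binding partners, 6 of 15 measured rose in wild-type stroke and 0 fell. Plau, the urokinase that makes plasmin, rose by 1.11 ± 0.14, its receptor Plaur by 1.34 ± 0.13 and the tissue activator Plat by 0.51 ± 0.07 (limma adjusted p = 0.000131, 1.08e-05 and 0.00048). Cd44, a hyaluronan receptor that docks Mmp9 on cells, rose by 1.17 ± 0.13 (limma adjusted p = 3.36e-05). In deficient dura 0 of the 15 passed, beside 0.125% of probe sets in each direction, and in engrafted dura 3 rose, beside 0.878%. The engrafted count hung on single arrays: it was 0 without naive engrafted array 2, 1 without naive engrafted array 1 or engrafted stroke array 2 or 3, 5 without engrafted stroke array 1, and 0 with only the compared groups in the fit. The deficient count became 1 without naive engrafted array 2 or 3, wild-type stroke array 2 or engrafted stroke array 3. The response of all 4 named genes was smaller in deficient than in wild-type mice, by -1.12 for Plau, -1.44 for Plaur, -0.68 for Plat and -1.31 for Cd44.

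The mast cell proteases known to act on proenzymes had their lowest means in deficient dura. The chymase Mcpt4 had group means of 9.14, 5.60 and 9.16 in wild-type, deficient and engrafted naive mice and of 8.36, 5.84 and 8.76 after stroke. In deficient mice it was under the lowest array's lower quartile and may be background, so its differences are lower bounds in size: -3.54 ± 0.37 for naive deficient against wild type (limma adjusted p = 0.000461) and 2.92 for engrafted against deficient after stroke (limma adjusted p = 0.00408). The tryptase Tpsb2 had 8.34, 7.15 and 8.31 when naive and 8.31, 7.43 and 8.38 after stroke. The chymase Cma1 had 7.32, 6.46 and 7.33 when naive and 7.21, 6.55 and 7.35 after stroke, and its differences between categories missed the threshold. The means of Mmp3 after stroke, in contrast, were ordered wild type, engrafted, deficient.

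Of 16 measured ADAM and ADAMTS proteases, which shed membrane proteins or cut aggrecan and versican, 7 rose in wild-type stroke (beside 6.24% of probe sets), 0 in deficient (0.125%) and 2 in engrafted dura (0.878%). The engrafted 2 were not stable. They became 0 with the replicate block, with only the compared groups in the fit and without naive engrafted array 1 or 2 or engrafted stroke array 2 or 3, 3 without engrafted stroke array 1, and 1 without wild-type naive array 1 or 3 or stroke array 1 or 2, naive deficient array 1 or 3, any deficient stroke array or naive engrafted array 3. The deficient 0 became 4 with array weights. The named ones were Adam9 (0.60 ± 0.06), Adam8 (1.06 ± 0.11), Adamts5 (1.27 ± 0.13) and Adamts4 (1.39 ± 0.18), with limma adjusted p of 1.26e-05, 2.3e-05, 2.44e-05 and 0.000139. Of 19 upstream cytokines and transcription factors, 6 rose in wild-type stroke, with Fosl1, an AP-1 subunit, at 0.91 ± 0.08 (limma adjusted p = 6.21e-06), Il11 at 1.56 ± 0.20 (0.000139), Tgfb1 at 0.73 ± 0.10 (0.000299) and Lif at 0.80 ± 0.12 (0.000549). Without dim probe sets 2 of these genes passed. In deficient dura 0 rose and 1 fell, Fosl2, by 0.67 ± 0.13 (limma adjusted p = 0.0451, beside 0.125% of probe sets). The list's count was 0 in 17 of 27 alternatives, on leaving out any 1 array other than naive wild-type 1 or 3 and engrafted stroke 1 or 2, with only the compared groups in the fit, with all probe sets and with the 1.5-fold minimum. In engrafted dura 0 passed in either direction, and 1 did without naive deficient array 2.

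Of 21 matrix substrates 6 rose and 1 fell in wild-type stroke, beside 6.24% and 4.63% of probe sets. These 7 became 3 without naive wild-type array 3 or wild-type stroke array 2, and 4 without wild-type stroke array 1. Vcan, the proteoglycan versican, rose by 1.24 ± 0.15 (limma adjusted p = 8.72e-05), the basement membrane chains Col4a1 and Col4a2 by 0.66 ± 0.09 and 0.58 ± 0.10 (0.000187 and 0.00147) and Col3a1 by 0.88 ± 0.21 (0.0134). Col3a1 missed the threshold when wild-type stroke array 2 (0.0657) or array 3 of naive wild type (0.0648) was left out. In deficient dura 0 of the 21 passed, and in engrafted dura Vcan alone rose (0 with only the compared groups in the fit). The medians of the 5 lists without the metalloproteinases were -0.01, 0.28, 0.31, 0.28 and 0.18 in wild-type stroke (inhibitors, activating proteases, ADAM proteases, upstream genes and substrates), against 0.01 over all tested probe sets.

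The genes most like Mmp3 over the 18 arrays, by Pearson r, were Prg4 (r = 0.97), Krtdap, Gsr, Raet1d and Vsig4 (r = 0.96 each). Prg4 encodes the lubricant proteoglycan 4, Gsr glutathione reductase, Raet1d a ligand of the NKG2D receptor and Vsig4 a complement receptor of tissue macrophages. These correlations describe 18 arrays that share groups, and they carry no test. By Spearman rank the closest gene was Clec1a (rho = 0.93), and of the 5 only Raet1d (rho = 0.91) stayed among the first 5. Among the members r with Mmp3 was 0.92 for Timp1, 0.86 for Mmp19, 0.80 for Mmp14, 0.67 for Mmp13, 0.61 for Mmp8, 0.41 for Mmp9, 0.30 for Mmp10, 0.26 for Mmp12 and -0.17 for Mmp2.

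**Figure D5:**
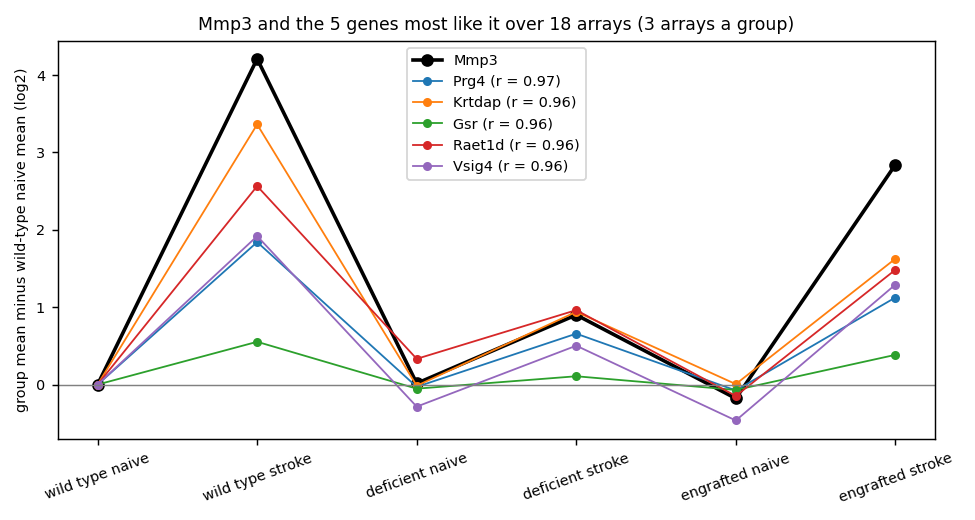
Group mean minus naive wild-type mean (log2, 3 arrays a group) of Mmp3 and the 5 genes with the highest Pearson r to it over 18 arrays. Each of the 6 lines is highest in wild-type stroke, where Mmp3 reaches 4.21, and the 3 naive groups lie close to 0.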

How the data were processed

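Dura from 18 mice was hybridised to Affymetrix arrays. The authors deposited 1 log2 value per probe set and array. The submitters' processing notes name RMA, affy and R 3.0.0 with no role stated, and summaries of this kind compress differences at low signal. The table had 34760 probe sets. Of these 21640 carried exactly 1 symbol in the platform annotation and were tested, 1321 carried several and 11799 had no entry. Nothing was rescaled or filtered.

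A limma model (3.58.1, R 4.3.3) with a mean for each group used every array (12 residual and 3.41 prior degrees of freedom). In each of 13 comparisons the Benjamini-Hochberg adjustment ran over all tested probe sets, with a threshold of 0.05. The fit was tested on simulated data. Labels give no batch, and no 2 arrays were identical.

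The members and lists were chosen with earlier results of these data known. Named were all members, up to 4 genes per list with the smallest p in wild-type stroke, list genes past the threshold in a response difference, the 5 genes most like Mmp3, and mast cell proteases. Alternatives were leaving out each array, dim probe sets, all probe sets, a replicate block, a second quantile normalization, array weights, trended and robust variance, a fit of the compared groups alone and a minimum change of 1.5-fold; leaving out the 5 arrays lowest in Ttr was chosen after seeing the data. Plots used Python 3.11.15 (matplotlib 3.10.9, pandas 2.3.3).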

Additional observations from a re-analysis of the deposited data

Results flagged for a closer look

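The stroke response, the stroke minus naive difference on the log2 scale, differed between categories for these genes by the test of the difference itself (limma, adjusted over all tested probe sets). Between deficient and wild-type mice the members were Mmp3 (-3.32, adjusted p = 8.19e-06), Timp1 (-1.04, 0.0209) and Mmp9 (-1.48, 0.0414). Between engrafted and deficient mice it was Mmp3 (2.14, adjusted p = 0.00683). The members were chosen on stroke differences of the same arrays, and these p values do not allow for that choice.

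Among related genes the deficient response was smaller than the wild-type one for Tfpi2 (-1.27, limma adjusted p = 0.00894), Plau (-1.12, 0.0209), Plaur (-1.44, 0.00212), Plat (-0.68, 0.00947), Cd44 (-1.31, 0.00473), Adam9 (-0.48, 0.0178), Adamts4 (-1.41, 0.0215), Adamts5 (-1.52, 0.00212), Il11 (-1.42, 0.0416), Fosl1 (-0.70, 0.0112) and Vcan (-1.08, 0.0401). The calls of Tfpi2, Plaur, Plat, Cd44, Adamts5 and Fosl1 passed on leaving out any 1 array. That of Plau failed without array 2 or 3 of naive wild type, naive deficient array 1 or 3, wild-type stroke array 1 or 2 or deficient stroke array 3 (adjusted p = 0.0541 to 0.0822). That of Adamts4 failed without array 3 of naive wild type, naive deficient array 1 or 3, wild-type stroke array 2 or 3 or deficient stroke array 2 or 3 (0.0524 to 0.0822), and that of Adam9 without naive deficient array 3, wild-type stroke array 3 or deficient stroke array 2 or 3 (0.0511 to 0.0642). Il11 was lost without any 1 naive array, any 1 deficient stroke array or engrafted stroke array 2 or 3 (0.0514 to 0.136), and Vcan without any 1 array other than naive deficient 1, naive engrafted 3 and engrafted stroke 1 or 3 (0.0519 to 0.125). Further losses came with only the compared groups in the fit for Plau (0.0600), Adam9 (0.0597) and Il11 (0.135), with the replicate block for Plau and Adamts4 (0.0502 each), Il11 (0.0689) and Vcan (0.0622), with all probe sets for Il11 (0.0749) and Vcan (0.0732), and with array weights for Vcan (0.0596).

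The engrafted response was smaller than the wild-type one for Tfpi2 (-1.30, limma adjusted p = 0.0177), Plaur (-1.01, 0.044), Adamts5 (-1.13, 0.0285) and Fosl1 (-0.95, 0.00351). Fosl1 passed on leaving out any 1 array. Tfpi2 failed without array 1 or 3 of naive wild type, naive engrafted array 2 or 3 or engrafted stroke array 1 (0.0517 to 0.0555). Adamts5 failed without array 2 or 3 of naive wild type, any naive engrafted array, wild-type stroke array 3, deficient stroke array 2 or engrafted stroke array 1 or 3 (0.0518 to 0.119). Plaur was lost without any 1 array other than naive deficient 1 or 2, naive engrafted 1, wild-type stroke 1 and engrafted stroke 2 (0.0515 to 0.162). Plaur and Adamts5 were also lost with only the compared groups in the fit (0.102 each), Plaur with all probe sets (0.0701) and Adamts5 with the replicate block (0.0583). Without the 5 arrays lowest in Ttr, a fit that leaves naive deficient dura with 1 array, only 1 of the 15 related differences passed, that of Tfpi2 between engrafted and wild type, and with a minimum change of 1.5-fold 0 of the 15 passed.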

How the results depend on the processing

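The counts of the 10 members past the threshold depended on the processing as follows. With a minimum change of 1.5-fold the counts were 2 in wild-type stroke, 0 in deficient, 1 in engrafted and 2 averaged over categories, 1 for deficient and 0 for engrafted against wild type after stroke, and 1 and 0 for the response differences of deficient minus wild type and engrafted minus deficient. With only the compared groups in the fit they were 0 in deficient stroke, 1 for naive engrafted against wild type, 0 for engrafted against deficient and 0 against wild type after stroke, and 0 for the engrafted minus deficient response. Deficient stroke gave 2 without dim probe sets and with a trended and robust variance, and 4 with array weights. Array weights also gave 2 for naive deficient and 1 for naive engrafted against wild type, 2 for engrafted against wild type after stroke and 1 for the engrafted minus wild type response. Engrafted against wild type after stroke also gave 2 without dim probe sets and after a second quantile normalization. Without the 5 arrays lowest in Ttr, chosen after seeing the data, deficient stroke gave 0, stroke deficient against wild type 1, stroke engrafted against wild type 0, and the responses of deficient minus wild type 1 and engrafted minus deficient 0. Leaving out 1 array at a time gave 6 to 6 members in wild-type stroke, 1 to 2 in deficient, 2 to 3 in engrafted, 5 to 6 averaged, 0 to 0 in each naive comparison, 2 to 3, 1 to 1 and 1 to 2 after stroke (deficient against wild type, engrafted against deficient, engrafted against wild type), and 1 to 3, 1 to 1 and 0 to 1 for the responses (deficient minus wild type, engrafted minus deficient, engrafted minus wild type). With the replicate block the deficient minus wild type response gave 1, Mmp3, with adjusted p of 0.0535 for Timp1 and 0.0622 for Mmp9, and the other 12 counts did not change. Of 45 pairs of same-numbered arrays 11 had a correlation of deviations over 0.1 (range -0.61 to 0.60). In 0 pairs of groups were all 3 correlations over 0.1. With 3 arrays a group this cannot exclude a pairing or a shared batch. No difference past the threshold changed sign in any setting. Small stroke differences did on leaving out 1 array: Mmp8 in wild type (0.20, down to -0.18), Mmp9 in engrafted (-0.16, up to 0.08), Mmp13 in deficient (0.19, down to -0.01), Mmp14 in deficient (0.01, down to -0.10), Mmp12 in every category and, averaged over categories, Mmp2 and Mmp12. The choice among a gene's probe sets gave no value, since each member has 1. The causes of these shifts were not tested, and 3 arrays a group limit all of them.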

Other observations

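After stroke in engrafted dura, granule genes of granulocytes stood beside a mean Mmp8 level of 8.72. That level overlapped wild-type stroke, at a mean of 8.49 (difference 0.23 ± 0.38, SE), and the difference missed the threshold. Ctsg, the neutrophil and mast cell protease cathepsin G, rose by 2.19 and Lcn2, which binds Mmp9, by 1.54 on the log2 scale. Both belong to the list of activating proteases and binding partners, whose engrafted count hung on single arrays. That count was 0 to 5 on leaving out 1 array. Of 9 granulocyte precursor markers 3 rose in engrafted stroke, with a median of 1.69, against 0 of 9 in deficient and 1 of 9 in wild-type dura, with medians of 0.76 and 0.61. Of all probe sets 0.878%, 0.125% and 6.24% rose in these comparisons. Whether these differ between categories was not tested for the list.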
